A study of Mus musculus with 18 samples.

Results

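Accessible sites of mouse embryonic stem (ES) cells that lie far from any other constant accessible site were examined by ATAC-seq, an assay in which a transposase cuts and tags open DNA. Peaks of all 18 deposited lists that shared 1 bp or more were merged into 377189 regions, and 29836 regions on chromosomes 1 to 19 held a peak in all 9 control libraries. The members were chosen by these control peaks and their spacing. An isolated region is one whose nearest other control-shared region lay more than 100 kb away, edge to edge. This gave 2230 isolated regions, 7.47% of the control-shared regions, and left 27606 others. Presence in the controls and distance are therefore descriptions and were given no test.

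Wild-type ES cells received 1 µM ICRF-193, a catalytic inhibitor of topoisomerase II (TOP2), or the solvent DMSO, for 24 h (2 libraries each) or 1 h (3 libraries each). The 1 h groups follow the sample titles, since the treatment protocol names only 24 h. Brg1 fl/fl and Baf53a fl/- ES cells, both carrying Actin-CreER, were exposed for 24 h to 0.8 µM tamoxifen or to ethanol, followed by 48 h of fresh medium (2 libraries per group). The Baf53a ethanol controls already lacked 1 allele, so the starting genotypes of the deletions differ. Replicates were passages of a line, and viable cells negative for death stains were sorted before transposition. P-values thus reflect how passages and libraries varied. The deletions themselves could not be checked in these lists, and no gene is named because an mm9 annotation was not used here.

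As background, most sites open in a cell type cluster around genes in gene-rich DNA, while single distal sites in gene-poor DNA are often enhancers or binding sites of architectural proteins. BAF is an ATP-driven remodelling complex that moves or evicts nucleosomes and keeps many distal elements open. Brg1 is its ATPase in ES cells and Baf53a an actin-related subunit. TOP2 relieves tangles and supercoils by passing one DNA duplex through another.

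The lists ran from 46431 to 129880 peaks, and the 2230 regions took 1.97% to 4.30% of each list. Read depth is unknown, because the files hold positions and a score without read counts. The control lists held 58532 to 129880 peaks and the perturbed lists 46431 to 100932. The shortest were tamoxifen replicate 2 of the Brg1 line (46431), ICRF-193 1 h replicate 2 (50611) and DMSO 1 h replicate 2 (58532). A short list has fewer peaks to place on any region, so list lengths are given beside the results that they touch.

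Isolated regions had a slightly smaller median width and a slightly higher median score in the controls than the others. Their median merged width was 734 bp against 780 bp. The score of a peak, which the authors supplied without a unit, was read only as a percentile within its list, tied scores sharing their mean percentile. The median over regions of the mean control percentile was 81.7 for isolated regions and 79.4 for the others. The median distance to the nearest other control-shared region was 158111 bp, and the largest was 1872 kb.

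Isolation was relative to the sites that all controls shared. No isolated region lacked a neighbour when peaks of any list were counted, and the median number of merged regions of any list within 100 kb was 17. Of these nearby regions, 63.0% were found in 1 list alone. For 1794 isolated regions (80.4%), a region found in 5 or more control lists lay within that distance. Isolated regions also followed one another: 748 stood alone between non-isolated regions and 1482 fell into 513 runs of 2 or more, the longest of 11. Their share of the control-shared regions was lowest on chromosome 11 (4.30%) and highest on chromosome 14 (10.6%).

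The highest-scoring isolated regions were at or near the top of every list, whatever the treatment. The region on chromosome 3 from 5860341 to 5860825 (mm9, counted from 1) had a mean control percentile of 99.9957 ± 0.00118 (SD, n = 9), and its percentile in each of the 9 perturbed lists was 99.99 or higher. A region on chromosome 18 was second with 99.992 ± 0.00293 (SD, n = 9), and chromosome 15 from 74916702 to 74917472 came next with 99.989 ± 0.00262 (SD, n = 9). The region on chromosome 4 from 5442330 to 5443211 (control mean 99.9 ± 0.104, SD, n = 9) moved more, to 96.1 in ICRF-193 24 h replicate 2 and 96.4 in Brg1 tamoxifen replicate 2. Chromosome 16 from 37384436 to 37385615 (99.9 ± 0.0419, SD, n = 9) was the fifth. All 5 held a peak in all 18 lists.

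The 3 regions just inside the distance threshold scored lower in the controls than 2 of the 3 just outside it. Those inside had mean control percentiles of 74.6 ± 10.4, 76.2 ± 11.8 and 58.6 ± 15.8 (SD, n = 9), and those outside 96.1 ± 1.55, 98.3 ± 2.13 and 76.2 ± 12.8 (SD, n = 9).

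The region farthest from any other held no peak after Brg1 deletion. It lay on chromosome 1 from 28732200 to 28732908, with no other control-shared region for 1988 kb on the left and 1872 kb on the right. Its control percentiles ran from 1.49 in Baf53a ethanol replicate 2 through a median of 93.7 to 98.5. In the Brg1 line it was at 93.9 and 78.4 in ethanol and absent from both tamoxifen lists, and the other 7 perturbed lists held it at 72.5 to 96.9. Chromosome 17 from 61105096 to 61105496, the next by distance, had control percentiles of 81.8 to 98.3 and was likewise absent from both Brg1 tamoxifen lists and from Baf53a tamoxifen replicate 2. Of the 5 regions with the largest distances, these were the members absent from both Brg1 tamoxifen lists, and the other 3 were absent from replicate 2 and present in replicate 1.

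Among the perturbed lists, detection of isolated regions was lowest in Brg1 tamoxifen replicate 2, the shortest list. Next came ICRF-193 1 h replicate 2, also short, and then Brg1 tamoxifen replicate 1. Both Brg1 tamoxifen lists showed the largest differences between isolated and other regions. In the Brg1 tamoxifen lists 83.3% and 59.4% of isolated regions had a peak, against 91.5% and 72.6% of the others. In the ICRF-193 24 h lists these shares were 94.2% and 88.4% against 96.0% and 91.5%. At 1 h they were 98.4%, 79.6% and 98.3% against 98.1%, 83.9% and 97.4%, where replicate 2 is the short list. In the Baf53a tamoxifen lists they were 96.2% and 90.9% against 96.2% and 91.8%. In all, 1062 isolated regions (47.6%) kept a peak in all 9 perturbed lists, as did 59.7% of the others.

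**Figure D1:**
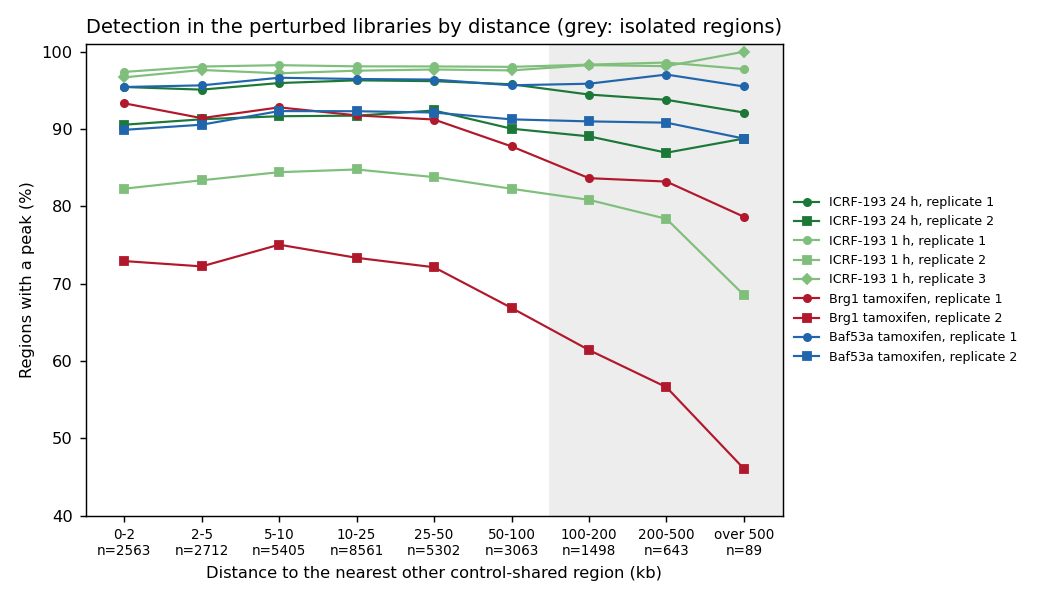
Percent of control-shared autosomal regions with a peak in each of the 9 perturbed libraries (vertical axis, starting at 40%) against the distance to the nearest other control-shared region (horizontal axis, kb, with the number of regions per bin). Both Brg1 tamoxifen lines fall from the 25 to 50 kb bin onwards (91.2% and 72.1%) to the bin over 500 kb (78.7% and 46.1%, 89 regions). The line of ICRF-193 1 h replicate 2, a short list, falls over these bins as well, from 83.8% to 68.5%. Replicates 1 and 3 of that group end at 97.8% and 100%.

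Complete absence was most frequent after Brg1 deletion. Both Brg1 tamoxifen lists lacked 345 isolated regions, 15.5% (exact Clopper-Pearson 95% interval 14.0 to 17.0, which covers counting over regions only), against 7.29% of the other regions and 7.9% of all control-shared regions. Other regions reweighted to the isolated regions' mix of control scores gave 6.26%, a ratio of 2.47. ICRF-193 for 24 h left 68 isolated regions (3.05%) without a peak in either list, against 1.86% of all. Baf53a deletion left 39 (1.75%), against 1.69% of all, and 1 h of ICRF-193 left 4 (0.179%), against 0.251% of all. At the isolated regions' mix of scores the other regions gave 1.38% for 24 h of ICRF-193 (ratio 2.21), 1.32% for Baf53a deletion (ratio 1.32) and 0.184% for 1 h (ratio 0.975). The 1 h count needs absence from 3 lists and is not comparable with the rest. Because the rule demands a peak in every control, these shares have no test.

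The Brg1 shares depended on both tamoxifen lists. A further 560 isolated regions had a peak in replicate 1 alone and 27 in replicate 2 alone. Absence from replicate 2 alone, the shortest list, would count 40.6% of isolated regions, and absence from replicate 1 alone 16.7%. The same single-list shares among the other regions were 27.4% and 8.47%. For ICRF-193 at 24 h the single-list shares of isolated regions were 5.83% and 11.6%, and for Baf53a deletion 3.81% and 9.15%.

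In every class of control score, a larger share of isolated than of other regions was absent after Brg1 deletion. All control-shared regions were cut into 5 equal classes by mean control percentile. From the weakest class to the strongest, absence was 31.1%, 24.9%, 17.4%, 10.4% and 1.47% for isolated regions. The other regions had 16.9%, 11.3%, 5.52%, 2.05% and 0.277%. After 24 h of ICRF-193 the isolated regions had 10.4%, 5.58%, 1.47%, 0.868% and 0%, and the others 6.05%, 2.11%, 0.455%, 0.0545% and 0%. After Baf53a deletion the isolated regions had 6.29%, 3.02%, 1.05%, 0.217% and 0%, and the others 5.75%, 1.90%, 0.583%, 0.0545% and 0%. In these 3 contrasts the isolated share was thus the higher in each class with any absence. The fourth class rests on few regions: 4 of 461 isolated and 3 of 5506 others for ICRF-193 at 24 h, and 1 and 3 for Baf53a. After 1 h of ICRF-193 the weakest class went the other way, with 0.629% of isolated regions (2 of 318) against 1.17% of the others. The second class had 0.465% (2 of 430) against 0.0903%, and the rest 0%.

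**Figure D2:**
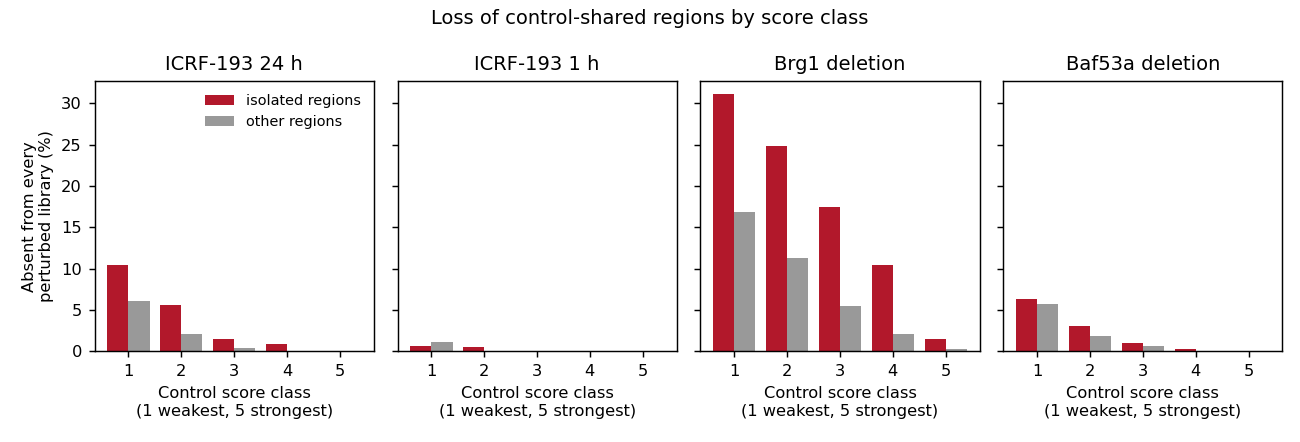
Percent of regions found in all 9 control lists but absent from all perturbed lists of the contrast (vertical axis) by control score class (horizontal axis, 1 weakest to 5 strongest), for isolated and other regions in 4 panels, 1 per contrast. In the Brg1 panel the isolated bar is the taller in each class, from 31.1% against 16.9% to 1.47% against 0.277%.

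Absence after Brg1 deletion rose with distance beyond the threshold as well. It was 5.31% among regions within 2 kb of another, 7.77% at 25 to 50 kb, 10.9% at 50 to 100 kb, 15.0% at 100 to 200 kb, 15.9% at 200 to 500 kb and 21.3% over 500 kb (19 of 89 regions). Among the 2 strongest score classes the share went from 0.265% within 2 kb to 3.77% at 100 to 200 kb, 8.75% at 200 to 500 kb and 11.1% over 500 kb, the last resting on 5 of 45 regions. After 24 h of ICRF-193 absence also rose over these bins, from 1.57% at 25 to 50 kb through 2.19%, 2.94% and 3.27% to 3.37% over 500 kb (3 of 89 regions), while regions within 2 kb were at 1.99%. Baf53a deletion showed no such order, with 2.07% within 2 kb and 1.80%, 1.71% and 1.12% in the 3 isolated bins.

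The 345 regions absent after Brg1 deletion were narrower and lower in the controls than those that stayed. Their median merged width was 557 bp, against 864 bp for the 1298 present in both tamoxifen lists, and their median control percentile was 72.3 against 86.7. Width here is that of the merge over all lists, which a missing list can narrow. Their median distance to another control-shared region was 169.7 kb against 153.4 kb. Of the 345, 115 (33.3%) held a peak in all 7 other perturbed libraries. By chromosome, the share of isolated regions absent after Brg1 deletion ran from 9.48% on chromosome 10 to 20% on chromosome 7.

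The 5 highest-scoring of the 345 were far up the control lists. Chromosome 14 from 59644583 to 59645126 had control percentiles of 93.4 to 99.6, with 97.5 and 93.4 in Brg1 ethanol, and no peak in Brg1 tamoxifen. The other 7 perturbed lists held it at 90.9 to 98.6, so that the Brg1 tamoxifen lists alone lacked it. Chromosome 14 from 94704580 to 94705308 was at 98.0 and 96.4 in Brg1 ethanol, at 99.5 and 97.8 in Baf53a tamoxifen, and at 92.4 and 53.9 with ICRF-193 for 24 h. Chromosome 8 from 78540292 to 78540985 was at 97.9 and 94.1 in Brg1 ethanol and at 61.7 and 33.2 with ICRF-193 for 24 h, below all 9 controls (84.8 to 97.9). Chromosome 19 from 48724338 to 48725019 was at 95.9 and 98.4 in Brg1 ethanol and was also absent from Baf53a tamoxifen replicate 2. Chromosome 17 from 94669063 to 94669571 was at 93.0 and 96.0 in Brg1 ethanol and present in the other 7 perturbed lists.

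**Figure D3:**
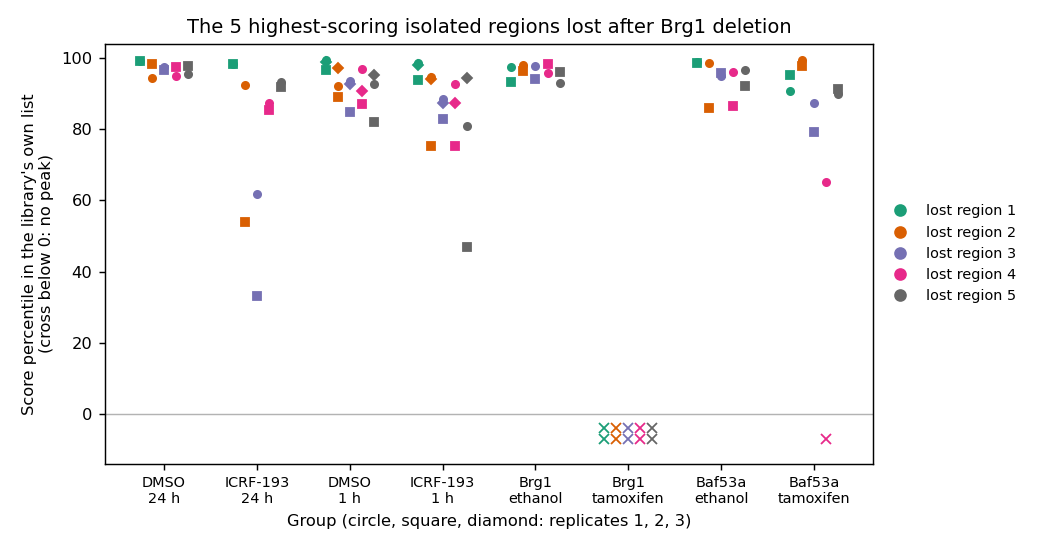
Score percentile within each library's own list (vertical axis) of the 5 highest-scoring isolated regions with no peak after Brg1 deletion, by group (horizontal axis), with 1 symbol per library and region and crosses for no peak. The crosses stand in both Brg1 tamoxifen libraries for all 5 regions and in Baf53a tamoxifen replicate 2 for region 4, and the control symbols lie above 80.

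Regions absent in another contrast were often absent after Brg1 deletion. Of the 68 absent after 24 h of ICRF-193, 30 (44.1%) were among the 345, and these were 8.70% of the 345. Of the 39 absent after Baf53a deletion, 26 (66.7%) were among them, or 7.54% of the 345. Among the other regions the corresponding shares of the smaller list were 28.5% and 46.2%. The contrasts share no control library, but both lists favour low scores, and the overlap was not tested.

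The top regions without a peak after 24 h of ICRF-193 kept one in most other lists. Chromosome 8 from 121047890 to 121048291 was at 88.2 and 97.7 in DMSO 24 h, absent from both ICRF-193 lists, and at 78.4, 82.9 and 93.4 with ICRF-193 for 1 h. Chromosome 5 from 56399089 to 56399450 was at 55.2 and 96.7 in DMSO 24 h, absent at 24 h and from replicate 2 at 1 h. Chromosome 16 from 27905840 to 27906872 was at 92.8 and 93.8 in DMSO 24 h. These regions on chromosomes 8, 5 and 16 had a peak in Brg1 tamoxifen replicate 1 and none in replicate 2. The one on chromosome 16 was also absent from Baf53a tamoxifen replicate 2. The other members named by the rule, on chromosomes 4 (63868383 to 63869001) and 1 (109874995 to 109875268), were absent from both Brg1 tamoxifen lists as well.

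The top regions without a peak after Baf53a deletion mostly lacked one after Brg1 deletion too. Chromosome 1 from 119712678 to 119713316 was at 93.0 and 72.6 in Baf53a ethanol and at 90.7 and 85.0 in Brg1 ethanol, and all 4 tamoxifen lists lacked it. Chromosome 7 from 34474696 to 34475498, with 2512 kb free on its left, was at 85.4 and 57.0 in Baf53a ethanol and lacked a peak in the same 4 lists. Chromosome 9 from 80826170 to 80826812 kept a peak in the Brg1 line, at 90.7 and 86.6 in ethanol and lower, at 26.0 and 9.55, in tamoxifen. A region on chromosome 18 and chromosome 17 from 82395111 to 82395759 completed the 5, both absent after either deletion.

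No isolated region was absent in all 4 contrasts, and 6 were absent in 3, of which the 5 with the highest control percentiles are described. A pair of neighbours on chromosome 18, 152.3 kb apart, were absent from both ICRF-193 24 h lists, all 3 ICRF-193 1 h lists and both Brg1 tamoxifen lists. Both kept a peak in the Baf53a tamoxifen lists, at 81.0 and 76.1 for one and 88.8 and 89.4 for the other. Chromosome 17 from 58033241 to 58033598 shared this pattern, with 86.2 and 10.1 in Baf53a tamoxifen. Chromosome 11 from 89637241 to 89637752 and chromosome 12 from 118084764 to 118085109 were absent after 24 h of ICRF-193, Brg1 deletion and Baf53a deletion. These 5 had mean control percentiles of 52.3 to 71.9. Apart from them, chromosome 4 from 146347349 to 146347615 (mean 41.3) was absent in 2 contrasts, 1 h and 24 h of ICRF-193.

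To compare perturbed with control libraries fairly, the rule was applied anew for each contrast with the control libraries of the other 3 contrasts only. Neither arm of a contrast then chose the regions. The detection gap is the percent of isolated regions with a peak minus that of other regions at like control score, within a library. For Brg1, with 2193 isolated regions, the gap was 0.32 and -1.83 points in ethanol and -9.63 and -15.97 points in tamoxifen (lists of 107473, 85007, 84763 and 46431 peaks in that order). The groups did not overlap, and among them ethanol replicate 2 (-1.83) and tamoxifen replicate 1 (-9.63) had lists of nearly equal length. For ICRF-193 at 24 h the gap was -0.38 and 0.17 points in DMSO and -2.63 and -4.85 with the inhibitor, also without overlap. At 1 h it was -3.07, -11.47 and 0.14 in DMSO and -2.86, -11.77 and -2.81 with ICRF-193, where the short lists of replicate 2 were lowest in both groups. For Baf53a it was -0.90 and -2.86 in ethanol and -1.79 and -3.49 in tamoxifen, which overlapped.

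No single contrast could pass a test on these numbers of libraries. The smallest two-sided exact permutation p is 0.333 for 2 against 2 libraries and 0.1 for 3 against 3. The difference in gap was -12.0 points for Brg1 and -3.63 for ICRF-193 at 24 h (exact permutation p = 0.333 for both). It was -1.02 at 1 h (exact p = 0.7) and -0.756 for Baf53a (exact p = 0.667). Labels permuted within all 4 contrasts together gave a mean difference in gap of -4.36 points (exact stratified permutation p = 0.0468, adjusted p = 0.0623 over 4 measures), lower in 8 of 9 numbered pairs. Plain detection of isolated regions differed by -11.2 points (exact p = 0.0370, adjusted p = 0.0623), lower in 9 of 9 pairs. Neither passed after adjustment. Both passed without DMSO 1 h replicate 2, the short control list (gap -7.33, detection -17.7, exact adjusted p = 0.00679 for each). They also passed without DMSO 24 h replicate 1, Baf53a tamoxifen replicate 1 or Baf53a ethanol replicate 2 (adjusted p from 0.0407 to 0.0494). A control library left out was also left out of the rule, so the isolated and other regions of the other contrasts changed too. Without the Brg1 contrast the gap difference was -1.80 points (exact p = 0.281). With every list reduced to its 46431 highest-scoring peaks, the gap difference over 4 contrasts was -2.92 points (exact adjusted p = 0.102) and the detection difference -6.93 points (exact adjusted p = 0.0519).

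**Figure D4:**
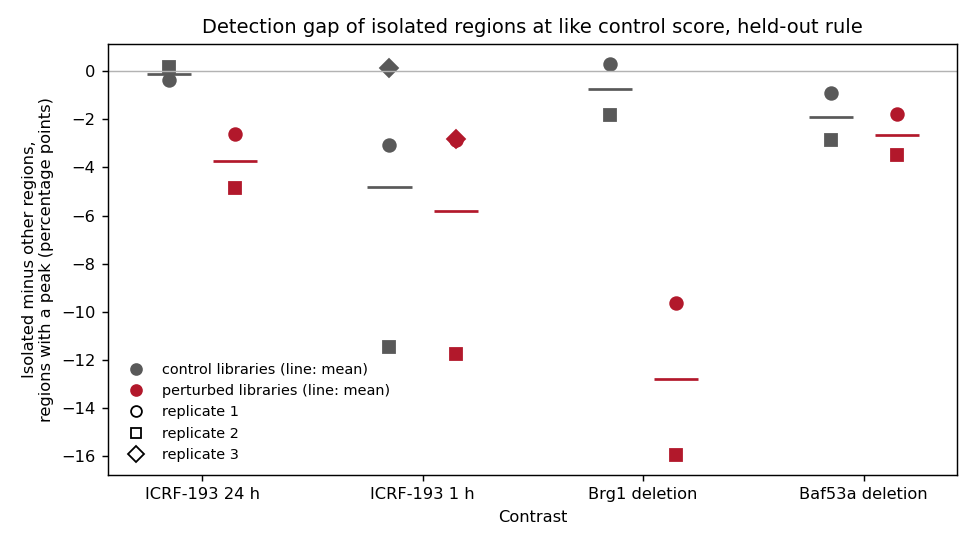
Detection gap, isolated minus other regions with a peak in percentage points at like control score (vertical axis), for each of the 18 libraries by contrast (horizontal axis), with the isolated regions of each contrast chosen from the other contrasts' controls. Symbols mark replicates and lines group means: the Brg1 tamoxifen libraries lie at -9.63 and -15.97 and the Brg1 ethanol libraries at 0.32 and -1.83.

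The width of peaks on isolated regions relative to other peaks was on average smaller in the perturbed than in the control libraries. Width was compared over regions with a peak in all 18 lists, as the mean log2 covered width of isolated minus other regions in a library. A positive value means wider isolated peaks among these regions, as in all libraries but ICRF-193 1 h replicate 2 and Brg1 tamoxifen replicate 2. Over all regions with a peak in a list, isolated regions had the smaller median width, for example 494 against 527 bp in DMSO 1 h replicate 1. Brg1 ethanol replicate 1 was the exception (445.5 against 440 bp). Unlike the detection gap, width was not compared at like control score. For Brg1 the width difference was 0.18 and 0.10 in ethanol and 0.036 and -0.089 in tamoxifen. For ICRF-193 it went from 0.095 and 0.11 to 0.074 and 0.054 at 24 h. At 1 h the DMSO values were 0.079, 0.051 and 0.12 and those with ICRF-193 0.048, -0.0020 and 0.083. For Baf53a it went from 0.080 and 0.069 to 0.055 and 0.061. Over the 4 contrasts the log2 difference was -0.065, lower in 9 of 9 pairs (exact stratified permutation p = 0.00370, adjusted p = 0.0148). It was no longer past the threshold without Brg1 ethanol replicate 1 (-0.057, exact adjusted p = 0.1) or without the Brg1 contrast (-0.032, exact adjusted p = 0.0889).

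The surroundings of isolated regions held a somewhat smaller share of the peaks of perturbed libraries, short of the threshold. Of all autosomal peaks, those within 100 kb of an isolated region without touching it made up 8.55% and 6.15% in Brg1 ethanol and 5.90% and 4.51% in tamoxifen. The mean difference over the 4 contrasts was -1.13 points (exact stratified permutation p = 0.0653, adjusted p = 0.0653), lower in 7 of 9 pairs. It passed without DMSO 24 h replicate 1, DMSO 1 h replicate 2 or Baf53a ethanol replicate 2 (exact adjusted p of 0.0407, 0.0148 and 0.0435). With every list reduced to its 46431 highest-scoring peaks, the mean difference was -0.113 points (exact adjusted p = 0.565) and that for Brg1 -0.493 against -2.15 points.

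Differences between the Brg1 and Baf53a contrasts, and between 24 h and 1 h of ICRF-193, did not pass an exact permutation test for any of the 4 measures. The Brg1 minus Baf53a difference in gap was -11.3 points (exact p = 0.278, adjusted p = 0.667 over 8 tests). The smallest p that comparison allows is 0.0556, so it could not pass. The 24 h minus 1 h difference in gap was -2.62 points (exact p = 0.55, adjusted p = 0.88), where the smallest possible p is 0.0167.

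Among isolated regions that kept a peak everywhere, the score rank fell after Brg1 deletion for many. Rank is the percentile of a region's score among the 18061 regions with a peak in all 18 lists, 1062 of them isolated. Every list is thus ranked over the same regions, but the ranks can still vary with list length. The 1062 passed by having a peak everywhere and do not stand for all 2230. In the Brg1 line the median rank of isolated regions was 62.9 and 58.3 in ethanol and 48.2 and 43.8 in tamoxifen, while the other regions stood at 49.2, 49.7, 50.2 and 50.4. The difference, isolated minus other, was thus 13.7 and 8.62 points in ethanol and -1.95 and -6.62 points in tamoxifen. With ICRF-193 for 24 h it was lower than in DMSO too, at 6.81 and 3.60 against 12.2 and 12.3 points, without overlap. At 1 h it was 10.4, 6.71 and 12.8 points against 11.5, 3.98 and 12.3 in DMSO, and in the Baf53a line 7.58 and 5.12 in tamoxifen against 11.4 and 8.28 in ethanol. In every group, control or perturbed, the shortest list had the lowest difference, and the part of list length in these values was not tested.

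By limma, 98 isolated regions fell in rank after Brg1 deletion (adjusted p under 0.05), 9.23% of the 1062, against 2.42% of all fitted regions. A single isolated region rose, against 0.144% of all. With isolation defined without Brg1 libraries, 97 of 985 fell (9.85%). All 985 still needed a peak in every list, the Brg1 lists included, so the tested libraries took part in selecting them. These shares were not compared at like starting rank, and isolated regions had the higher median rank in Brg1 ethanol. In the simulations described below, falls of 40 points were called in 0% of middle-ranking and 76% of high-ranking regions. These were separate runs, with falls of 20 points beside them in the first and of 70 in the second. The adjusted threshold thus differed between them and from the real fit, so the 2 shares are not a like comparison. The median change of isolated regions was -4.44 points and that of all fitted regions 2.10. These calls rest on a spread estimated over all 8 groups: with the 4 Brg1 libraries alone, limma called 0 of all fitted regions. Unadjusted p was under 0.05 for 289 isolated regions in that fit. In the main fit it was under 0.05 for 284 (26.7%), against 13.9% of all fitted regions. The number that fell was 38 without ethanol replicate 1, 53 without ethanol replicate 2 and 46 without tamoxifen replicate 2. Fewer, 60, fell without a variance trend.

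**Figure D5:**
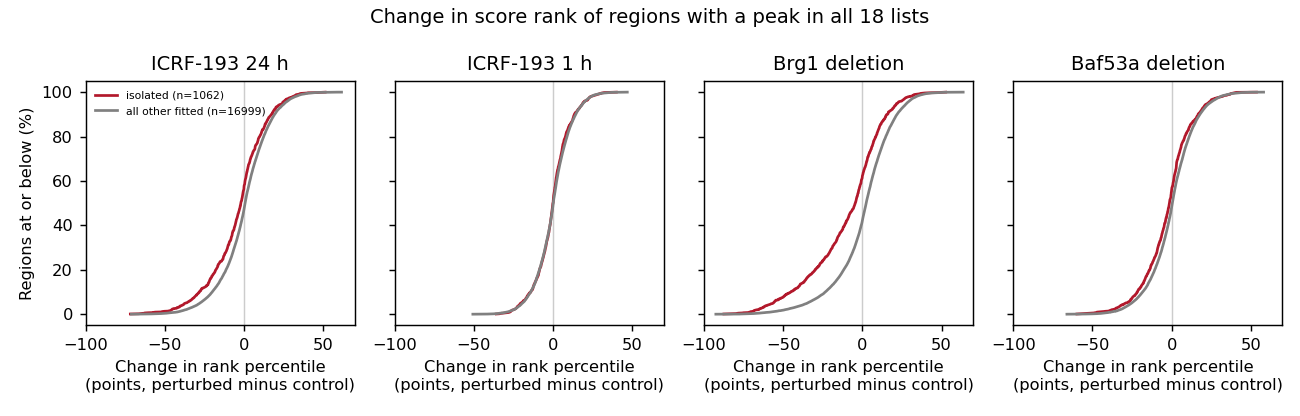
Cumulative percent of regions (vertical axis) by fitted change in rank percentile, perturbed minus control in points (horizontal axis), for the 1062 isolated and all other fitted regions, 1 panel per contrast. In the Brg1 panel the isolated curve lies to the left, with a median change of -4.44 points, and at 1 h of ICRF-193 the curves nearly coincide, with medians of -0.12 for isolated and 0.063 for all fitted regions.

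The largest falls took regions from the upper ranks to near the bottom in both tamoxifen lists. Chromosome 10 from 47350982 to 47351849, with 1504.7 kb free on its right, ranked 97.7 and 97.2 in Brg1 ethanol and 15.98 and 4.14 in tamoxifen, a change of -87.4 points (SE 6.96, limma adjusted p = 5.61e-07). In the 14 other libraries it ranked 59.5 to 99.2, with the lowest values in Baf53a tamoxifen (76.2 and 59.5). Chromosome 16 from 87207848 to 87208549 went from 85.0 and 91.7 to 9.13 and 1.14 (-83.2 points), and was also low with ICRF-193 for 24 h, at 46.0 and 9.70. Chromosome 4 from 70977520 to 70978056 went from 90.3 and 89.5 to 15.98 and 4.14 (-79.8 points). Its call was lost without ethanol replicate 1 (limma adjusted p = 0.0535) or tamoxifen replicate 2 (0.0518).

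The other regions in the top 5 behaved alike in the Brg1 line. Chromosome 6 from 76589433 to 76590122 went from 98.1 and 89.4 to 20.2 and 9.29 (-79.0 points). Chromosome 11 from 93469691 to 93470747 went from 86.6 and 86.6 to 12.3 and 4.14 (-78.4 points), and in the Baf53a line it stood at 71.2 and 64.7 in ethanol and 69.8 and 65.6 in tamoxifen.

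The isolated region that rose was the neighbour of one that fell. Chromosome 11 from 93332963 to 93333629, 136.1 kb to the left of the region just described, ranked 8.31 and 7.24 in Brg1 ethanol and 56.4 and 64.4 in tamoxifen, a change of 52.6 points (SE 13.2, limma adjusted p = 0.0362). It lost its call without any 1 of the 4 Brg1 libraries (limma adjusted p from 0.0747 to 0.260). In the Baf53a line it ranked 29.1 and 36.2 in ethanol and 54.3 and 58.8 in tamoxifen, and that change was not called.

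No isolated region was called in the other contrasts. For ICRF-193 at 24 h limma called 0 of 1062 lower and 0 higher, against 0.0443% and 0.00554% of all fitted regions. Unadjusted p was under 0.05 for 132 isolated regions (12.4%), against 9.24% of all fitted regions. The region nearest a call was chromosome 4 from 75458074 to 75458627, at 69.8 and 80.2 in DMSO and 7.65 and 9.70 with ICRF-193 (-66.3 points, SE 12.1, limma adjusted p = 0.0513). It was called on normal scores of the ranks (limma adjusted p = 0.0142) and with regions in 16 or more of the 18 lists (0.00299). Next was chromosome 5 from 56513190 to 56513866, at 97.4 and 98.4 against 82.2 and 73.0 (-20.3 points, SE 3.85, adjusted p = 0.0520), which was called without ICRF-193 24 h replicate 1 (limma adjusted p = 0.0273). With a library left out, 6 were called lower without ICRF-193 24 h replicate 1 and 1 without replicate 2. At 1 h 0 were called either way, as among all fitted regions (0% lower and 0% higher). Unadjusted p was under 0.05 for 54 isolated regions (5.08%), against 5.60% of all fitted regions.

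After Baf53a deletion 0 isolated regions were called lower and 0 higher, against 0.0166% and 0% of all fitted regions. Unadjusted p was under 0.05 for 91 isolated regions (8.57%), against 7.15% of all fitted regions. Chromosome 2 from 98684247 to 98685113 came nearest, at 98.96 and 99.19 in ethanol and 90.1 and 78.5 in tamoxifen (-14.8 points, SE 3.19, limma adjusted p = 0.155), and was called without Baf53a tamoxifen replicate 1 (limma adjusted p = 0.00584). Brg1 deletion moved the same region from 99.2 and 99.5 to 87.5 and 78.4. Without Baf53a tamoxifen replicate 1 limma called 6 isolated regions lower, and without replicate 2 it called 1.

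The difference between the deletions was tested in the same fit. For 12 isolated regions (1.13%) the rank change after Brg1 deletion was lower than after Baf53a deletion (limma interaction, adjusted p under 0.05), and for 0 it was higher, against 0.233% and 0.00554% of all fitted regions. These shares, too, were not compared at like starting rank. The number called lower was 6 without Brg1 ethanol replicate 1 or Baf53a ethanol replicate 2, and 62 without Brg1 tamoxifen replicate 1. Without Baf53a ethanol replicate 1 or tamoxifen replicate 1, 1 and 2 isolated regions were called higher. For 24 h against 1 h of ICRF-193, 0 isolated regions were called, against 0.00554% of all fitted regions lower and 0% higher. Unadjusted p was under 0.05 for 88 isolated regions (8.29%), against 6.90% of all fitted regions. Without ICRF-193 24 h replicate 1, 2 were called lower.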

How the data were processed

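ATAC-seq peak lists of 18 libraries were used, 1 list per library. Per the submitters' processing notes the build was mm9 and the named tools were edgeR 3.12.1, MACS2 and Bowtie 0.12.9, whose roles are not stated. For blacklists, read shifting and calling parameters, nothing is given in the sources used here. Start and end positions and the score were used as the authors deposited them, the score being another number without a stated unit, so only its percentile within a list was taken. Read depth is unknown.

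The members and lists were chosen with earlier results of these data known. Regions were merged in Python 3.11.15 (checked against bedtools 2.31.1). Exact permutation tests covered 4 measures, with Benjamini-Hochberg adjustment. Rank fits used R 4.3.3 and its package limma 3.58.1 (a term for each group, variance trend, adjustment over 18061 regions). Named regions were the 5 with the highest control percentile, the 5 with the largest distance, the 3 on either side of the threshold, the top 5 absent per contrast, at most 5 of those absent in 3 contrasts and, per rank contrast, the 5 largest called falls and rises or else the 2 smallest p.

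On simulated data for the Brg1 contrast (18061 regions), limma called 0% of regions of middle rank that fell by 20 points and 0% of those that fell by 40. A second simulation, added after that result, used high-ranking regions (mean rank above the upper quartile): it called 76% of falls of 40 points, 97% of falls of 70 and 0.0392% of unchanged regions. A count of 0 therefore does not show that ranks were unchanged. The runs mixed falls of different sizes, which moves the adjusted threshold, so middle and high ranks were not compared on like terms. A simulated gap difference of -10 points over 29836 regions was recovered as -10.02.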

Additional observations from a re-analysis of the deposited data

Results flagged for a closer look

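The rank change of isolated regions differed between the deletions of 2 BAF subunits in 12 regions, by an interaction test in limma. The 5 largest differences, Brg1 change minus Baf53a change, follow. Chromosome 11 from 93469691 to 93470747 differed by -78.1 points (SE 12.2, limma adjusted p = 0.00481). Chromosome 1 from 68826436 to 68827116 ranked 92.9 and 73.1 in Brg1 ethanol, 15.98 and 9.29 in Brg1 tamoxifen, 76.3 and 66.5 in Baf53a ethanol and 71.0 and 85.1 in Baf53a tamoxifen, a difference of -77.1 points. Chromosome 14 from 85698649 to 85699303 differed by -66.9 points. There the Brg1 tamoxifen libraries stood at 41.7 and 1.14, and the other 16 between 79.7 and 97.3. Chromosome 10 from 47350982 to 47351849 differed by -66.0 points and chromosome 3 from 126700252 to 126701626 by -63.9 points. The calls on chromosome 11 and chromosome 10 held in all 10 alternatives run for them. That on chromosome 1 was lost in 3 and those on chromosomes 14 and 3 in 5 each. These alternatives were normal scores, the replicate block and single libraries left out, all with a spread estimated over all 8 groups. Fits on fewer groups were not run for the interaction. For Brg1 deletion itself, such a fit called 0 isolated regions. The Baf53a controls lacked 1 allele, so genotype and deletion cannot be told apart in these differences.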

How the results depend on the processing

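Without read counts, depth cannot be separated from a change in accessibility, and short lists limit every detection value. Libraries with the same replicate number were only weakly alike in their deviations (correlations 0.035 to 0.13), and the main tests did not use these numbers. At 1 h, however, replicate 2 had the lowest detection in both groups (71.2% in DMSO and 65.8% with ICRF-193). Under the replicate block, detection (-11.2), the detection gap (-4.36) and flank peaks (-1.13) over 4 contrasts passed (adjusted p of 0.00781, 0.0104 and 0.0391), and 124 isolated regions fell in rank after Brg1 deletion. Isolated regions numbered 5293 over 50 kb and 732 over 200 kb. Over 50 kb, Brg1 absence was 12.8%, and detection (-10.2) and gap (-3.49) passed. Over 200 kb, detection (-12.3), gap (-5.53) and flank peaks (-0.753) passed. With equal numbers of peaks (46431), the differences over 4 contrasts shrank to -6.93 for detection, -2.92 for the gap and -0.113 for flank peaks, and detection at 1 h to -0.798, while the width difference of -0.0495 still passed (adjusted p = 0.00741). Brg1 absence was 11.0%, the gap at 1 h was 0.323 and the Baf53a flank difference 0.471, both reversed; the Brg1 gaps were -0.42 and -1.19 in ethanol and -7.55 and -12.6 in tamoxifen.

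With single libraries left out, the differences over 4 contrasts ran from -17.7 to -8.14 for detection, -7.33 to -3.57 for the gap, -0.0806 to -0.0494 for width and -1.41 to -0.822 for flank peaks. For these 4 measures, leaving out a control also changed the regions of the other contrasts. Without the Brg1 contrast the differences were -5.82, -1.80, -0.0316 (not past the threshold) and -0.788. At 1 h detection ran from -13.1 to 4.38 and the gap from -4.35 to 1.96. For Baf53a the gap ran from -1.73 to 0.221 and flank peaks from -0.572 to 0.445. Absence ran from 5.83% to 11.6% (ICRF-193 24 h), 0.179% to 1.08% (1 h), 16.7% to 40.6% (Brg1) and 3.81% to 9.15% (Baf53a), since fewer lists must lack a region. Rank calls ran from 38 to 127 lower and 0 to 1 higher for Brg1, and 0 to 6 lower for ICRF-193 24 h and Baf53a. The interaction ran from 6 to 62 lower and 0 to 2 higher between deletions, and 0 to 2 lower between 24 h and 1 h.

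For Brg1, isolated regions called lower numbered 60 of 1062 without a variance trend (292 of all 18061 fitted) and 0 with 2 groups only. Regions in 16 of 18 lists formed a larger set, where 283 of 1872 isolated regions fell, against 1258 of all 30417 fitted. Those called higher numbered 0 with 2 groups only and 0 with summed scores. With 16 of 18 lists they numbered 3 of 1872, against 146 of all 30417. For ICRF-193 24 h, normal scores called 5 lower and 1 higher of 1062, against 16 and 1 of all 18061. With 16 of 18 lists it was 4 and 1 of 1872, against 19 and 2 of all 30417. Normal scores called 6 in the interaction. The cause of these moves was not tested. Leaving out single perturbed libraries for absence, leaving out libraries for the interaction and leaving out the Brg1 contrast were chosen after seeing the data.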
